A study of Mus musculus with 13 samples.

Results

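The brush border is the carpet of microvilli on the apical face of intestinal epithelial cells, and 10 genes that build it were described here, chosen by name from the 32285 genes of the deposited matrix: Vil1, Ezr, Espn, Myo1a, Myo7b, Ush1c, Cdhr2, Cdhr5, Anks4b and Eps8. Each microvillus holds a core of parallel actin filaments, bundled by villin (Vil1) and espin (Espn), with Eps8 at the tip. Ezrin (Ezr) ties the core to the plasma membrane, and the motor myosin 1a (Myo1a) bridges core and membrane along the shaft. Neighbouring microvilli are linked at their tips by the intermicrovillar adhesion complex, in which the protocadherins Cdhr2 and Cdhr5 bind each other outside the cell and are held inside by the scaffolds harmonin (Ush1c) and Anks4b and by the motor myosin 7b (Myo7b). In the colon, new cells arise at the crypt base and assemble their brush border as they move up to the surface.

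The study measured single-cell RNA with a droplet 3′ assay in epithelial cells from whole mouse colons. The conditions were antibiotic-treated wild type C57BL/6J mice and germ-free mice of the C57BL/6J strain, which are raised without microbes. The labels give neither the ages of the mice nor how many went into each pool. Cells were dissociated, pooled by condition and sorted as EPCAM+ CD45- cells, with CD44+ (proliferative) and CD44- (differentiated) cells taken in equal numbers, so the mixture of crypt and surface cells was set by the sort and not by the tissue. The labels list 3 cDNA libraries of the antibiotic condition in a first batch and 2 of the germ-free condition in another, and the barcode libraries and control mice were not analysed here. With 1 pool per condition in its own batch, condition and batch cannot be told apart, no test was possible and no p-value is given.

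The deposited cells numbered 3415 from antibiotic-treated mice, with 36530277 UMI (unique molecules counted), and 768 from germ-free mice, with 3100880 UMI. Cell names split these into 3 antibiotic and 2 germ-free cell sets, with medians of 6599 to 7420 UMI per cell in antibiotic sets against 1045 and 4682 in germ-free sets 3 and 4. Levels are given as counts per 1000000 UMI (CPM). Intervals are 95% counting intervals, so they hold no variation from mouse to mouse. The labelled cell type was checked against markers: the 5 epithelial genes summed to 6278 and 5980 CPM in antibiotic and germ-free cells, and the 6 immune genes to 0.739 and 2.26 CPM. The antibiotic sets were not independent of each other, since 810 cell barcodes occurred in more than 1 of them and none was shared with or between germ-free sets. The profiles of a barcode shared by antibiotic sets 2 and 3 were more alike (median r = 0.57) than those of different barcodes (median r = 0.37), and 1 copy was usually far shallower. Leaving out the 837 shallower copies moved the log2 ratios of the 10 genes between conditions over all cells by at most 0.015.

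Because all 10 genes were higher at the surface end than at the crypt end, as given below, their promoters are shown first. RefSeq windows (GRCm38.p6, 250 bases before to 50 after each start) were found for 8 of the 10 genes. A script searched both strands for the HNF4 half-site CAAAGT and the CDX core TTTATNG, which are named for transcription factors known to act in enterocytes, and no window of the 8 genes held both. The half-site was in 2 of the 8 genes, Cdhr2 and Anks4b, and in 14.4% of all 32851 windows, and the CDX core in 1 Espn window and in 10.9% of all. The windows of Cdhr2 and Anks4b are printed with the match in capitals (20 and 56 bases upstream of the start), and that of Cdhr5, the partner of Cdhr2 in adhesion, is printed as a window without a match.
Cdhr2 (chr13:54701213-54701512, plus strand): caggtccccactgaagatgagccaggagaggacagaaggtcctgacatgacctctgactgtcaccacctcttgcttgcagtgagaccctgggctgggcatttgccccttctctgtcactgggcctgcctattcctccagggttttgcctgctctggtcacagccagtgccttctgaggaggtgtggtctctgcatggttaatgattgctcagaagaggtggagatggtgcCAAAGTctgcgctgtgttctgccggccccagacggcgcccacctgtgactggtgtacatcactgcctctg
Anks4b (chr7:120173608-120173907, plus strand): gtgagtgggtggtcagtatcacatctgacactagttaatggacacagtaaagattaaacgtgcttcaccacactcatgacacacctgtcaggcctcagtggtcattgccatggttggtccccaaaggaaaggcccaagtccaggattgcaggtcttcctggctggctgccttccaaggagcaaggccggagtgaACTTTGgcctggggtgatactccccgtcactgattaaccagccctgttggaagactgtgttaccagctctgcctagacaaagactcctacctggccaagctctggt
Cdhr5 (chr7:141276737-141277036, minus strand): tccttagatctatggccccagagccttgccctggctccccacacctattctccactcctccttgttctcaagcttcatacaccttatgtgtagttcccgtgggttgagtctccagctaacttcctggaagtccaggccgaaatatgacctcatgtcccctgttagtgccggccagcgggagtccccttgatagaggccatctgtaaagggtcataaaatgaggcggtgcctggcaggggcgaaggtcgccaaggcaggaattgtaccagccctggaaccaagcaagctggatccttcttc
These matches are descriptions of letters, not of binding.

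The genes were first followed from crypt to surface. Absorptive cells (those outside the goblet, enteroendocrine and tuft gates) were ordered by the share of surface-marker UMI among the UMI of crypt and surface markers, which include none of the 10 genes, and 3221 cells with at least 5 such UMI were put into 5 bins. All 10 genes were higher at the surface end (bin 5) than at the crypt end (bin 1) in antibiotic cells, and 9 of the 10 were at least 2-fold higher, against a background of 10.3% of the 7258 genes compared. The median log2 ratio of the 10 genes was 1.76, against -0.52 for all genes compared. Among germ-free cells 9 of the 10 were also at least 2-fold higher, against a background of 10.7%, with a median log2 ratio of 1.66, but only 6 of the 10 had enough UMI there to be ranked.

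**Figure D1:**
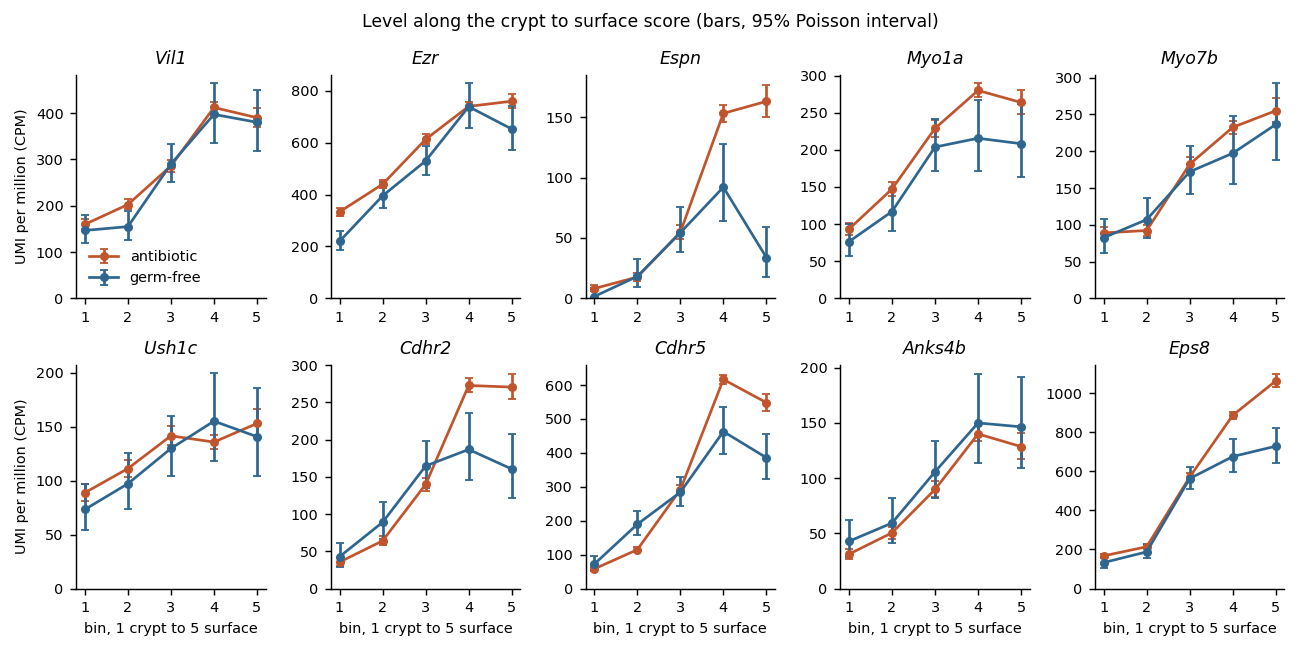
Level of each gene in CPM (vertical axis from 0) in bins 1 (crypt) to 5 (surface) for antibiotic and germ-free absorptive cells, with 95% Poisson intervals. In antibiotic cells Espn runs from 8.09 to 163 CPM and Ush1c from 88.8 to 153 CPM, and in germ-free cells Espn peaks at 92.1 CPM in bin 4.

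Among the bundling and tip proteins, the span was widest for Espn. Its antibiotic levels in bins 1 to 5 were 8.09, 17.6, 54.7, 153 and 163 CPM, a 20.2-fold difference between the ends (interval 14.9 to 27.8). Eps8, which caps and bundles actin at the tip, stood at 167, 214, 571, 887 and 1063 CPM, 6.36-fold apart (5.92 to 6.83), the highest surface level of the 10. Vil1 spanned far less, with 160, 203, 286, 412 and 390 CPM, 2.44-fold (2.25 to 2.66). In bin 1 villin was thus at 160 CPM, where Espn was the lowest of the 10 genes.

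Of the membrane linkers, only Ezr was high from the crypt on. Ezr stood at 334, 440, 613, 740 and 760 CPM (2.28-fold, 2.15 to 2.42) and was the highest of the 10 in bin 1. Myo1a stood at 93.2, 147, 229, 280 and 264 CPM (2.83-fold, 2.54 to 3.15). Both had covered most of their climb by the middle bin, 65.5% for Ezr and 72.6% for Myo1a, against 30.1% for Espn and 45.1% for Eps8. Germ-free cells did not show this split, with 59.7% for Ezr and 91.5% for Myo1a against 58.4% for Espn and 72.2% for Eps8.

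The adhesion complex was not uniform. The protocadherins had steep profiles: Cdhr5 stood at 57.9, 114, 291, 616 and 548 CPM (9.47-fold, 8.43 to 10.7) and Cdhr2 at 35.5, 64.1, 140, 273 and 270 CPM (7.61-fold, 6.54 to 8.90). Their cytoplasmic partners were flatter. Anks4b spanned 31.1 to 128 CPM (4.13-fold, 3.47 to 4.93) and Myo7b 89.0 to 255 CPM (2.87-fold, 2.57 to 3.20), with bins 1 and 2 of Myo7b almost level at 89.0 and 92.2 CPM. Ush1c had the flattest profile of the 10, at 88.8, 111, 142, 136 and 153 CPM (1.72-fold, 1.53 to 1.95), and was the gene that missed the 2-fold limit. The intervals of bins 4 and 5 overlapped for 8 of the 10 genes. They did not for Eps8, higher in bin 5, and Cdhr5, higher in bin 4.

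In germ-free cells Espn, Eps8 and Cdhr5 had the widest spans and Ush1c again the narrowest. Cdhr2 (3.75-fold, 2.35 to 6.13) and Anks4b (3.42-fold, 2.12 to 5.63) were close there, so the split between these partners was not seen. Cdhr5 stood at 71.8, 189, 284, 463 and 386 CPM and Eps8 at 133, 188, 563, 676 and 729 CPM, while Ush1c stood at 73.3, 97.2, 130, 155 and 141 CPM. Espn differed in shape, with 1.53, 18.1, 54.4, 92.1 and 33.8 CPM. Its end bins rested on 1 and 12 UMI, so its fold (22.1, interval 3.27 to 945) is poorly fixed. Surface bins (4 and 5) lay above crypt bins (1 and 2) in all 3 antibiotic sets for all 10 genes and in both germ-free sets for 9 of 10, the exception being Myo7b in germ-free set 3 (82.5 against 103 CPM). Bin 5 was the shallowest in both conditions, with medians of 3754 and 2360 UMI per cell, and 580 of its 645 cells had no crypt-marker UMI at all. The part of this depth difference in the profiles was not tested. Median-of-ratios scaling lifted all 10 genes past 2-fold.

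The 5 other genes whose profile over the 10 groups of condition and bin was most like the mean of the 10 genes were Myo15b (Pearson r = 0.998), Ptprh (0.995), Myzap (0.995), 4930539E08Rik (0.994) and Myh14 (0.992). Myo15b encodes an unconventional myosin and Myh14 a non-muscle myosin heavy chain. Myo15b stood at 48.2 CPM in bin 1 and 459 CPM in bin 5 of antibiotic cells, close to the span of Cdhr5. The 10 groups share libraries and the surface score, and 6.42% of all ranked genes had r of at least 0.9. The 5 genes were picked as the most alike, so their r is a description.

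Proximal and distal cells were then compared by marker gates. Each cell with at least 3 UMI of region markers was put in the distal gate when at least 0.8 of them were distal markers (homeobox genes such as Hoxb13, with Slc37a2, Atp12a, Cldn8 and Sycn) and in the proximal gate at 0.2 or less (markers such as Cyp2c55, Fabp2 and Mettl7b). In antibiotic surface cells (bins 4 and 5) 5 of the 10 genes were at least 1.5-fold lower in the 47 distal than in the 885 proximal cells and none was as much higher, against a background of 18.9% lower and 21.2% higher. The median log2 ratio of the 10 was -0.48, against 0.00 for all genes compared. In these bins the genes split within their functional groups, as the bundler Espn was lower and Vil1 level, and the scaffold Anks4b was lower and Ush1c was not. With bin 3 added Vil1 was lower too (1.27-fold, 1.16 to 1.40), though by less than Espn (2.39-fold, 1.95 to 2.97).

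Eps8 stood at 522 CPM in distal and 993 CPM in proximal surface cells, 1.90-fold lower (1.71 to 2.12). Myo7b was at 139 and 247 CPM, 1.78-fold lower (1.44 to 2.21). Cdhr5 was at 356 and 626 CPM, 1.76-fold lower (1.54 to 2.01), and its partner Cdhr2 at 216 and 273 CPM, 1.27-fold lower (1.07 to 1.51). Espn was at 93.6 and 161 CPM, 1.72-fold lower (1.34 to 2.25), and Anks4b at 93.6 and 144 CPM, 1.53-fold lower (1.19 to 2.01). The other direction held for Ezr at 895 and 738 CPM (1.21-fold higher, 1.11 to 1.32) and Myo1a at 320 and 270 CPM (1.19-fold, 1.03 to 1.36). The intervals of Vil1 (374 and 411 CPM) and Ush1c (168 and 139 CPM) reached equality.

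**Figure D2:**
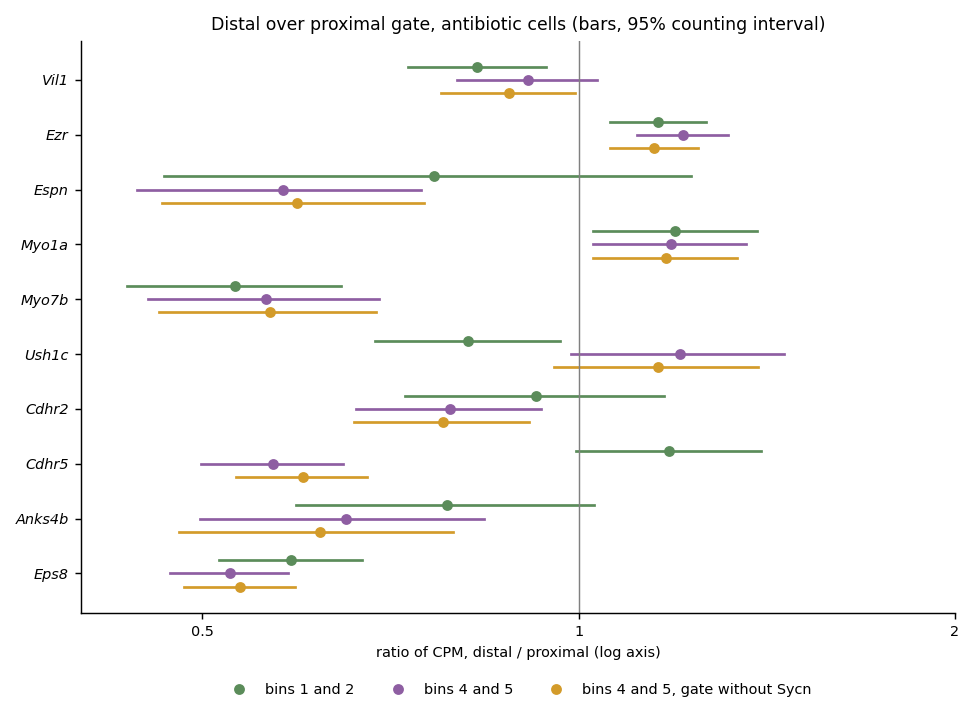
Ratio of CPM in the distal over the proximal gate (horizontal log axis) for each gene in antibiotic cells of crypt bins 1 and 2, surface bins 4 and 5, and surface bins with a gate that leaves out Sycn, with 95% counting intervals. Myo7b and Eps8 lie left of 1 in all 3 rows, while Ezr and Myo1a lie right of 1.

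Of the 5 genes past 1.5-fold, Myo7b and Eps8 were lower in distal surface cells of every antibiotic set. Myo7b was at 118, 147 and 137 CPM in distal cells of sets 1, 2 and 3 and at 251, 237 and 252 CPM in proximal cells. For Eps8 the distal values were 495, 630 and 414 CPM and the proximal values 1027, 849 and 1069 CPM. Espn, Cdhr2, Cdhr5 and Anks4b were lower in sets 2 and 3 but not in set 1, whose distal gate held 8 cells: Espn was at 215 CPM in those cells and at 120 CPM in proximal ones. Ezr and Myo1a, higher in distal cells of the pool, were lower in those of set 1 (log2 ratios of -0.36 and -0.13). Without set 2, 2 of the 10 genes were past 1.5-fold, Eps8 and Myo7b. When only cells with at least 15 axis UMI were used, 2 genes were past it as well.

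In crypt cells (bins 1 and 2, 107 distal and 314 proximal cells) Myo7b was at 62.4 and 117 CPM (1.88-fold lower, 1.55 to 2.30) and Eps8 at 141 and 240 CPM (1.70-fold lower, 1.49 to 1.94). These were 2 of the 10 genes past 1.5-fold, against a background of 19.6%. Cdhr5 was at 108 and 91.4 CPM there, with an interval that reached equality (1.18-fold, 0.996 to 1.40), so its surface difference was not seen in the crypt. The gates lean on Sycn, which stood at 3780 CPM in distal surface cells, and a gate without it (with a distal share of at least 0.5 and a minimum of 2 region UMI) again had 5 of the 10 genes at least 1.5-fold lower at the surface, against a background of 19.8%, with log2 ratios of -0.90 for Eps8 and -0.82 for Myo7b. In crypt bins that gate gave Eps8 a log2 ratio of 0.29 and Myo7b one of -0.16, so the crypt difference was not seen with that gate. Its proximal crypt cells numbered 537 and had 471 CPM of Sycn, against 33.3 CPM in the 314 cells of the first gate. Since 3 choices differ between the gates, the part of each in the crypt ratios was not tested. Surface markers summed to 6134 CPM in distal and 12353 CPM in proximal surface cells, and the part of this in the ratios was not tested. When these surface cells were split at their median surface score and the 2 parts given equal weight, 5 genes were past 1.5-fold. The proximal marker Adh1 went against its list, at 325 CPM in distal and 58.1 CPM in proximal surface cells, and the count of 5 was the same without it.

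Germ-free surface cells in the distal gate numbered 17, too few for the limit of 20 cells, so bins 3 to 5 were used (27 distal and 160 proximal cells). Myo7b was at 75.6 and 227 CPM, 3.0-fold lower (1.60 to 6.37). Eps8 was at 416 and 753 CPM (1.81-fold lower, 1.37 to 2.43) and Vil1 at 204 and 387 CPM (1.90-fold lower, 1.28 to 2.93). In all 5 of the 10 genes were at least 1.5-fold lower. Of the 9 with enough UMI to be ranked 4 were, against a background of 23.1%. All 10 genes were lower in distal cells there, among them Ezr (log2 -0.26) and Myo1a (log2 -0.09), whose intervals included equality. The median log2 ratio of the 10 was -0.67, against -0.11 for all genes compared. Of the 10, 9 lay below the median of all genes, and Myo1a did not. The distal Espn value rested on 3 UMI. With the gate without Sycn, germ-free surface bins 4 and 5 held 31 distal and 113 proximal cells, and 2 of the 10 genes were at least 1.5-fold lower, Myo7b (2.20-fold) and Cdhr5 (1.69-fold), against a background of 23.1%. Eps8 was at 692 and 743 CPM there, with an interval that included equality. In antibiotic cells of bins 3 to 5 with the first gate, 6 of the 10 were at least 1.5-fold lower. The background there was 13.5%, and Myo7b was at 124 and 241 CPM and Eps8 at 437 and 917 CPM.

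Goblet cells, which secrete mucus and carry a sparser brush border, were gated by mucus genes (64 antibiotic and 70 germ-free cells). In antibiotic cells 5 of the 10 genes were at least 2-fold lower in the goblet gate than in absorptive cells, against a background of 10.3%. Surface markers summed to 2195 CPM in goblet-gate cells and to 6789 CPM in absorptive cells, and crypt markers to 976 and 628 CPM. The part of this in the goblet ratios was not tested. Espn was at 8.42 and 84.7 CPM (10.1-fold lower, 4.62 to 27.4, on 6 UMI), Cdhr2 at 43.5 and 167 CPM (3.84-fold lower, 2.70 to 5.65) and Cdhr5 at 99.7 and 356 CPM (3.57-fold lower, 2.83 to 4.58). Eps8 was at 234 and 596 CPM and Myo1a at 85.6 and 212 CPM, 2.54-fold and 2.48-fold lower. Ezr, Anks4b, Myo7b and Ush1c were 1.47-fold to 1.88-fold lower, and with cells thinned to 1000 UMI the direction of Myo7b turned (log2 0.23). Vil1 was the most alike, at 254 and 303 CPM (1.19-fold, 1.03 to 1.39), and a mean of per-cell values turned its direction (log2 0.17).

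**Figure D3:**
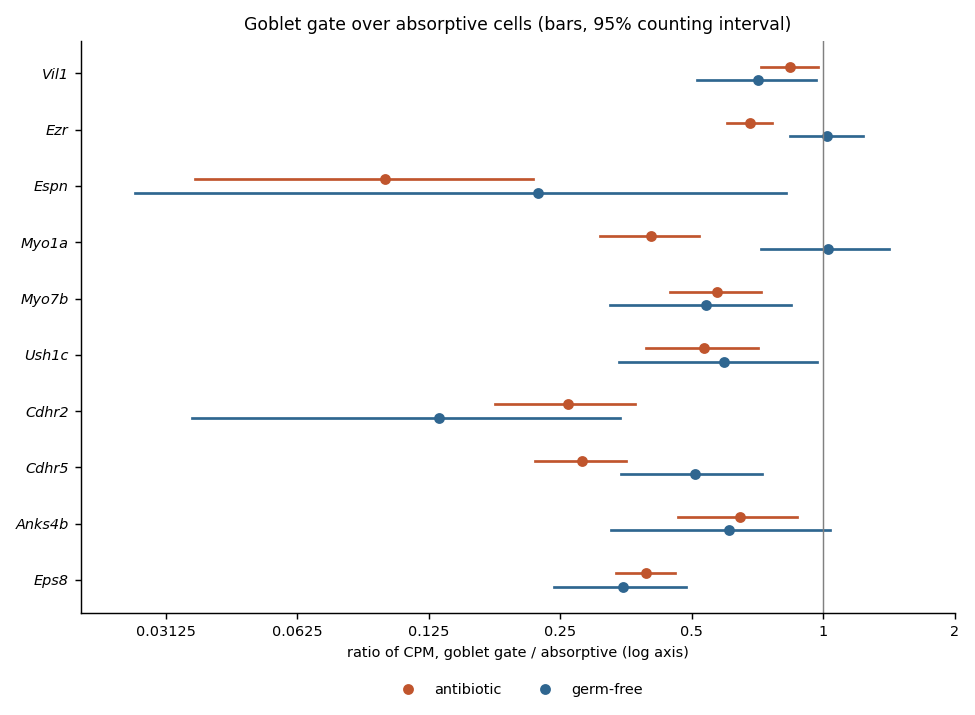
Ratio of CPM in the goblet gate over absorptive cells (horizontal log axis) for each gene, antibiotic and germ-free, with 95% counting intervals. Cdhr2 and Espn lie furthest left in both conditions, and Myo1a is at 0.404 in antibiotic and 1.02 in germ-free cells.

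In germ-free cells 3 of the 10 were at least 2-fold lower: Cdhr2 at 15.8 and 120 CPM (7.57-fold lower, 2.93 to 28.0), Eps8 at 143 and 410 CPM (2.87-fold lower, 2.06 to 4.13) and Espn at 7.92 and 35.7 CPM on 2 UMI. Espn had too few UMI to be ranked there. Of the 9 ranked genes 2 were at least 2-fold lower, against a background of 9.4%. Myo1a was at 158 and 155 CPM and Ezr at 479 and 469 CPM in goblet and absorptive cells. Surface markers summed to 2432 and 5348 CPM in these germ-free groups. Without germ-free set 4 the count of 3 moved to 8, on the 32 goblet-gate cells of the shallow set 3. Whether the goblet difference of Myo1a depends on condition was not tested.

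The 2 conditions were compared over all cells first. Each of the 10 genes was lower in both germ-free sets than in all 3 antibiotic sets, against a background of 24.5% of the 6462 ranked genes. At least 1.5-fold lower were 4 of the 10 (Espn, Eps8, Cdhr2 and Cdhr5), against a background of 6.5%, and none was as much higher (background 7.1%). The median log2 ratio was -0.40, against 0.05 for all ranked genes. The summed level of the 10 genes was 2649 CPM for the antibiotic pool and 1918 CPM for the germ-free pool.

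Espn was at 68.4, 81.2 and 89.6 CPM in the antibiotic sets, in the order 1, 2, 3, and at 14.9 and 34.5 CPM in sets 3 and 4 of the germ-free pool. The pooled levels were 82.3 and 31.9 CPM, a germ-free level 2.58-fold lower (2.11 to 3.18), and the sets did not overlap. Eps8 was at 606, 494 and 629 CPM against 335 and 378 CPM, 1.56-fold lower (1.47 to 1.65). Both bundling and tip genes thus differed more than villin, which was at 316, 285 and 303 CPM against 208 and 244 CPM, 1.25-fold lower (1.16 to 1.35).

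Of the linkers, Ezr was at 575, 550 and 610 CPM against 340 and 473 CPM, 1.28-fold lower (1.21 to 1.35). Myo1a was at 181, 203 and 225 CPM against 132 and 154 CPM, 1.38-fold lower (1.25 to 1.51). Neither reached 1.5-fold, and in each the shallower germ-free set 3 was the lowest.

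**Figure D4:**
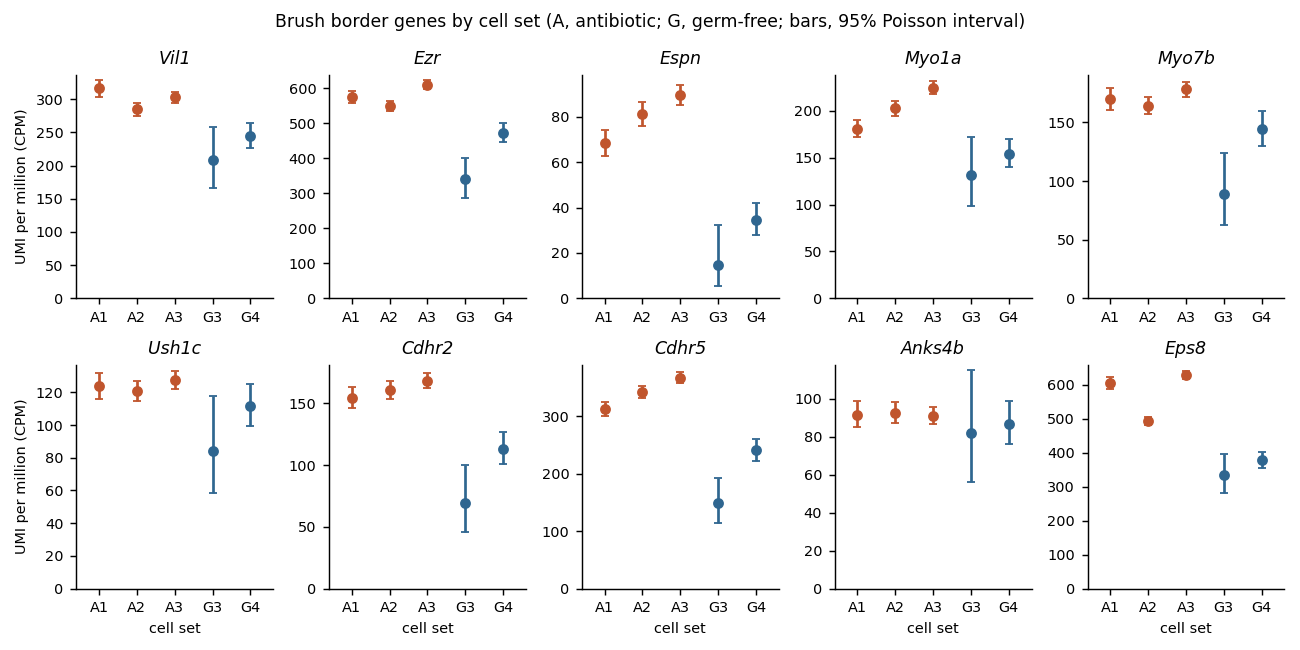
Level of each gene in CPM (vertical axis from 0) in antibiotic cell sets A1, A2 and A3 and germ-free cell sets G3 and G4, all cells, with 95% Poisson intervals. Both germ-free points lie below all antibiotic points in every panel, widely for Espn (14.9 and 34.5 CPM against 68.4 to 89.6 CPM) and narrowly for Anks4b (81.9 and 86.7 CPM against 91.0 to 92.6 CPM).

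Within the adhesion complex the protocadherins again stood apart from their partners in summed counts. Cdhr5 was at 311, 341 and 367 CPM against 149 and 241 CPM, 1.51-fold lower (1.40 to 1.64). Cdhr2 was at 155, 161 and 168 CPM against 69.5 and 113 CPM, 1.52-fold lower (1.36 to 1.70). The scaffolds and motor were nearer to level. Myo7b was at 170, 164 and 178 CPM against 89.3 and 144 CPM (1.25-fold lower, 1.13 to 1.38) and Ush1c at 124, 121 and 128 CPM against 84.4 and 112 CPM (1.15-fold lower, 1.03 to 1.29). Anks4b was at 91.7, 92.6 and 91.0 CPM against 81.9 and 86.7 CPM, with an interval that included equality (0.939 to 1.21). With a mean of per-cell values its log2 ratio turned to 0.03. By that mean Cdhr2 (log2 -0.41) was close to its partner Myo7b (-0.38), with Cdhr5 at -0.48 and Ush1c at -0.18.

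The pools differed in makeup as well. The goblet gate held 1.87% of antibiotic and 9.11% of germ-free cells, surface markers summed to 6555 and 4874 CPM, mitochondrial genes took 12.4% and 18.7% of UMI, and dissociation-response genes summed to 2598 and 1893 CPM. Proximal region markers summed to 3249 and 1589 CPM, and in surface bins 4 and 5 to 5344 and 2589 CPM, where distal markers summed to 472 and 1252 CPM. In antibiotic surface cells 7 of the 10 genes were lower in the distal than in the proximal gate. These include the 4 past 1.5-fold between the conditions. They also include Myo7b and Anks4b (log2 -0.83 and -0.61 by region), whose log2 ratios between the conditions were -0.32 and -0.09. The part of each makeup difference in the ratios between the conditions was not tested, but values within bins of the surface score were measured. With equal weight on the 5 bins the median log2 ratio of the 10 genes was -0.20, 1 gene (Espn, -0.97) was past 1.5-fold and Anks4b was at 0.19. The count of 4 also moved to 1 without antibiotic set 3, to 2 without germ-free set 3 and to 7 without germ-free set 4. Espn was past 1.5-fold in each of these.

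Within surface bins 4 and 5 (1121 antibiotic and 174 germ-free cells) 2 of the 10 genes were at least 1.5-fold lower, Espn and Cdhr2, against a background of 10.4%, and the median log2 ratio was -0.26, against 0.08 for all genes compared. Espn was at 128, 163 and 164 CPM in antibiotic sets and at 35.4 and 67.6 CPM in germ-free sets, 2.44-fold lower (1.83 to 3.32). Cdhr2 was at 265, 273 and 274 CPM against 106 and 183 CPM, 1.56-fold lower (1.31 to 1.88). Cdhr5 (1.41-fold, 1.26 to 1.58), Eps8 (1.33-fold, 1.21 to 1.45) and Myo1a (1.30-fold, 1.11 to 1.54) were also lower, with both germ-free sets below all antibiotic sets. The share of all genes with that order of sets was 24.5% over all cells and was not measured within bins. The other 5 genes, Vil1, Ezr, Myo7b, Ush1c and Anks4b, had log2 ratios between -0.14 and 0.11 with intervals that included equality. The count of 2 genes moved to 1 without germ-free set 3 and to 6 without germ-free set 4.

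**Figure D5:**
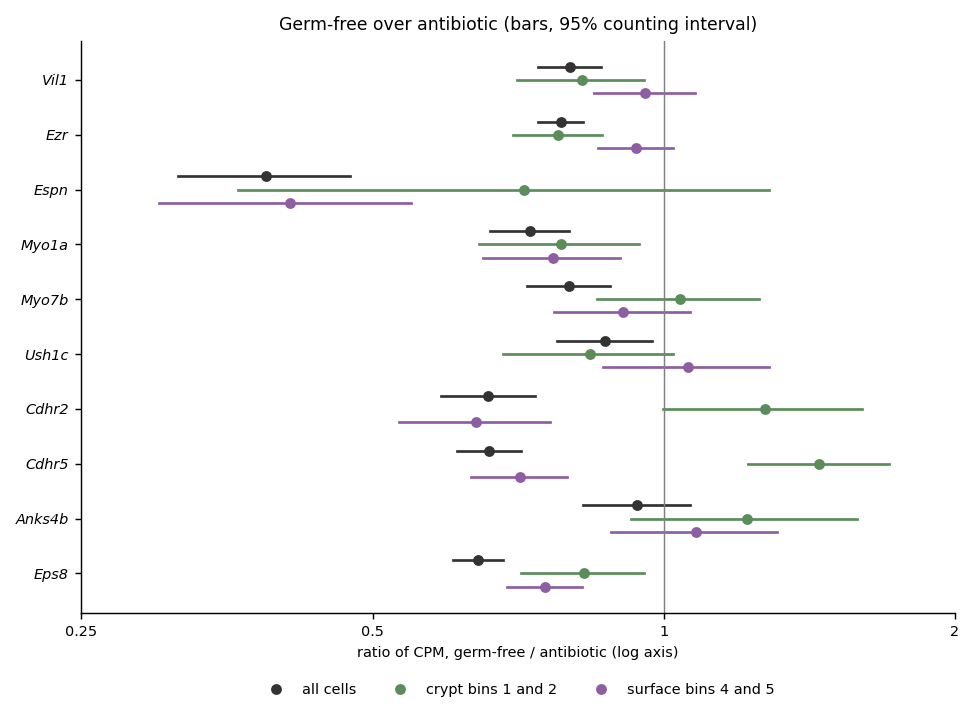
Ratio of CPM in germ-free over antibiotic cells (horizontal log axis) for each gene over all cells, crypt bins 1 and 2, and surface bins 4 and 5, with 95% counting intervals. Espn is at 0.388 over all cells and 0.411 in surface bins, and Cdhr5 is at 1.45 in crypt bins and 0.710 in surface bins.

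In crypt bins 1 and 2 none of the 10 genes was past 1.5-fold in either direction, against a background of 9.65% lower and 6.53% higher. Cdhr5 was higher in germ-free cells there, at 159 and 125 CPM in sets 3 and 4 against 74.2, 91.9 and 92.9 CPM in antibiotic sets, 1.45-fold (1.22 to 1.71). Cdhr2 was at 63.5 and 65.1 CPM against 45.3, 51.7 and 53.3 CPM, 1.27-fold (0.999 to 1.61). Both protocadherins were thus above the antibiotic sets in the crypt bins and below them at the surface. In cells with at least 1000 UMI and at most 15% mitochondrial UMI this held for Cdhr5, while both germ-free sets of Cdhr2 were no longer above all antibiotic sets in the crypt bins. Ezr (1.29-fold, 1.16 to 1.43), Myo1a and Ush1c were lower in both germ-free sets. Over all cells 24.5% of ranked genes were lower in both germ-free sets and 29.4% higher, and these shares were not measured within bins. The crypt bins of the conditions were not matched in full, as their surface markers summed to 1368 CPM (antibiotic) and 1850 CPM (germ-free). The part of this in the protocadherin levels was not tested.

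Other genes of the microvillus were taken from a list of 45, of which 33 were ranked between the conditions. Of these, 5 were lower by 1.5-fold or more in the germ-free pool (6.5% of all ranked genes were) and none was as much higher (7.1%), and their median log2 ratio was -0.23. Tmigd1, an adhesion protein of the brush border, was at 202 CPM in the antibiotic and 49.0 CPM in the germ-free pool (4.13-fold lower, 3.52 to 4.88). Slc9a3r1, the scaffold that ezrin binds, was at 127 and 54.5 CPM (2.34-fold lower, 2.00 to 2.74), while Ezr itself was 1.28-fold lower. Of the cytoplasmic actins, Actb was at 2816 and 1329 CPM (2.12-fold lower, 2.05 to 2.19) and Actg1 at 1320 and 1325 CPM. The myosins Myo1d, Myo1e and Myo6 had log2 ratios of 0.11, -0.04 and 0.26, and Pdzd8 one of 0.33.

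From crypt to surface in antibiotic cells, 13 of 34 ranked list genes were at least 2-fold higher and 2 as much lower, against backgrounds of 10.3% and 31.5%, with a median log2 ratio of 0.47 against 1.76 for the 10 structural genes. Tmigd1 (6.68 to 451 CPM) and the adhesion molecule Ceacam20 (4.05 to 280 CPM, the level in bin 1 on 23 UMI) had the widest spans. Rdx, the radixin relative of ezrin, ran the other way at 44.1 and 3.70 CPM, as did Baiap2l2 at 111 and 44.2 CPM. In distal against proximal surface cells Tmigd1 was at 19.6 and 501 CPM and Baiap2l2 at 7.55 and 47.6 CPM, the lowest ratios of the list. Lima1 at 993 and 504 CPM and Cobl, an actin nucleator, at 530 and 271 CPM were the highest.

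In the GENCODE vM21 annotation of mm10, 5 of the 10 genes overlap another annotated gene. Of these Vil1 (chromosome 1, 74409376 to 74435559, plus strand) overlaps Usp37 on the opposite strand, which was at 24.3 CPM against 295 CPM for Vil1 over all cells. Ezr (chromosome 17, 6738041 to 6782784, minus strand) overlaps Sytl3, at 0.908 CPM. The sources used here do not say whether counting used strand. Espn, Cdhr2, Cdhr5, Anks4b and Myo1a overlap no other gene.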

How the data were processed

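Single-cell RNA was measured in 5 cDNA libraries (3 antibiotic, 2 germ-free), and 8 barcode libraries were not used here. Per the file's values, the authors deposited the natural log of counts scaled to 10000 per cell, plus 1. The submitters' processing notes list Cell Ranger 7.0.0, kallisto, bustools and mm10 but give them no roles, and the sources used here do not state how cells were filtered. UMI counts were recovered from the size of 1 UMI in each cell, and 100% of 9481333 nonzero values came out whole within 0.01. Numbers in the germ-free cell names match no library title, so cells were assigned to conditions and cell sets, not libraries.

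UMI were summed over cells and scaled to CPM. Intervals are exact Poisson for levels and conditional binomial (Clopper-Pearson) for ratios, at 95%. Log2 ratios are of CPM + 1, which understates changes of low genes. Genes with at least 100 UMI in both groups together and 20 CPM in the higher one were ranked. The fold limits were 1.5 for condition and region and 2 for axis and lineage, and groups needed 20 cells. The goblet gate took cells with at least 5 UMI and 1% of UMI in mucus genes. Bin cuts were set over both conditions together, and no doublet caller was run. The interval code was tested on simulated data. The 10 genes, the other lists and the alternatives were chosen with earlier results of these data known. Named genes were the 10, the listed microvillus genes of highest level or largest ratio in each direction, and the 5 genes of most similar profile. Intervals were computed with SciPy 1.17.1 in Python 3.11.15, tables with pandas 2.3.3 and NumPy 2.4.6, and plots with matplotlib 3.10.9.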

Additional observations from a re-analysis of the deposited data

Results flagged for a closer look

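Both protocadherins of the adhesion complex had opposite differences between the conditions at the 2 ends of the surface score. At each end every germ-free cell set lay on 1 side of every antibiotic set. Over all cells 24.5% of ranked genes had both germ-free sets below all antibiotic sets and 29.4% had them above. These shares were not measured within bins, so how common the pattern is there is not known. The log2 ratio of Cdhr2, germ-free over antibiotic, was 0.34 in crypt bins 1 and 2 and -0.64 in surface bins 4 and 5. That of Cdhr5 was 0.53 in crypt bins and -0.49 in surface bins. These differences between bins were not tested, since each condition was 1 pool. The counting interval of the crypt ratio of Cdhr2 included equality (0.999-fold to 1.61-fold). In cells with at least 1000 UMI and at most 15% mitochondrial UMI both germ-free sets of Cdhr5 were still above all antibiotic sets in the crypt bins, and those of Cdhr2 were not. Germ-free set 3 held 64 cells in crypt bins and 60 in surface bins, with medians of 1630 and 1289 UMI per cell. Its values therefore rest on few counts.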

How the results depend on the processing

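In total 119 of 141 recomputed summary values stayed close to the reported one. The count of 4 genes past 1.5-fold between the conditions was 2 with totals that leave out mitochondrial genes, Gm42418, AY036118 and Lars2, 2 with a pseudocount of 10 CPM, 2 with germ-free set 4 alone (chosen after seeing the data), 1 with a mean of per-cell values and 1 with equal weight on the axis bins. It ran from 1 to 7 when each cell set was left out. The median log2 ratio (-0.40) was -0.69 in cells with at least 1000 UMI and at most 15% mitochondrial UMI and -0.20 with equal weight on the bins, and ran from -0.78 to -0.33 when each set was left out. In surface bins (-0.26) it ran from -0.77 to -0.19 when each set was left out.

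The median of the crypt to surface ratios (1.76) was 2.28 with median-of-ratios scaling, 2.00 in the stricter cells, 1.59 with a mean of per-cell values, 1.59 with a pseudocount of 10 CPM and 1.59 with other crypt and surface lists. The count of 5 genes lower in distal surface cells was 3 with cells thinned to 1000 UMI, 2 with at least 15 axis UMI, and ran from 2 to 5 when each set was left out. Its median (-0.48) was -0.15 when thinned and -0.24 with at least 15 axis UMI. The sign of a gene's log2 ratio turned in 56 of 1590 recomputed values, and 9 of these had a reported ratio farther from 0 than the half-width of its counting interval: in surface cells by region for Myo1a (-0.012, stricter cells) and Anks4b (0.049, thinned), in crypt cells by region for Ush1c (0.22, thinned), Vil1 (0.30) and Eps8 (0.29) with the gate without Sycn (chosen after seeing the data) and germ-free Myo7b (0.26, thinned), and in goblet against absorptive cells for Vil1 (0.17, mean of per-cell values; from -0.61 to 0.16 in germ-free cells when each germ-free set was left out) and Myo7b (0.23, thinned). The cause was not tested. A distal gate of homeobox genes alone was not run, as it left fewer than 20 cells. No paired analysis was possible because each condition was 1 pool of cells in its own batch.

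Of ranked genes past 1.5-fold between the conditions 52.2% were higher, against 42.3% with median-of-ratios scaling, and all 10 genes lay below the median of ranked genes under the 4 scalings run. Depth limits the germ-free values most, where 3 UMI correspond to 0.967 CPM over all cells. The 524 antibiotic and 143 germ-free cells under 1000 UMI were left out when thinning.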

Other observations

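The tuft gate held 14 cells, fewer than the limit of 20 for a comparison, so its values are given alone. In these chemosensory cells, which carry a tall tuft of microvilli, Cdhr5 was at 1016 CPM (interval 816 to 1250, on 89 UMI) and Cdhr2 at 422 CPM (297 to 582, on 37 UMI). Espn was at 274 CPM (175 to 407, on 24 UMI) and Vil1 at 354 CPM (240 to 502). In the same cells Eps8 was at 114 CPM (54.7 to 210) and Anks4b at 34.2 CPM on 3 UMI. Absorptive antibiotic cells had 356 CPM of Cdhr5, 84.7 CPM of Espn and 596 CPM of Eps8. No test was run, and counting error is the only error these intervals cover.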
